A study of Mus musculus with 30 samples.

Results

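The Nrf2 axis and the glutathione synthesis genes were followed here as 10 members, chosen as the rows of the normalized count table whose Ensembl identifiers belong to Nfe2l2, Keap1, Nqo1, Hmox1, Gclc, Gclm, Gsr, Gss, Srxn1 and Slc7a11. All 10 were found among the 21412 genes of the table, and all 10 passed the filter on low values in every fit. Hippocampus RNA of 30 male BALB/c mice had been sequenced, with 5 mice in each of 6 groups of a full factorial design of methylmercury (MeHg) and selenium. The mice arrived at an age of 2 to 3 weeks, were acclimatized for 5 days and ate the experimental feed for 11 weeks. The comparisons ask how these genes differed with the dose of MeHg, with selenium, and with both.

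Ctr mice received feed without added mercury or selenium. LD mice received feed with 0.28 mg MeHg per kg and HD mice feed with 5 mg MeHg per kg. Se_Ctr mice received selenium without mercury, Se_LD mice selenium with the low mercury dose and Se_HD mice selenium with the high mercury dose. The series title names the selenium as selenium-methionine. The amount added and the selenium content of the purified base diet are not given in the sources used here. Groups described as without selenium are those without added selenium. The tissue is a bulk sample, in which fewer cells of a type and less RNA per cell cannot be told apart.

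Nrf2, encoded by Nfe2l2, is a transcription factor that is held in the cytoplasm and marked for degradation by Keap1. Electrophiles and oxidants modify cysteines of Keap1, after which Nrf2 builds up and binds antioxidant response elements in front of detoxification genes, so much of its control lies in the protein and not in its mRNA. Glutathione, the thiol that binds methylmercury in cells, is made from cystine imported by xCT (Slc7a11) through glutamate cysteine ligase (Gclc and Gclm) and glutathione synthetase (Gss), and in brain astrocytes are known for supplying its precursors to neurons.

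The genes lie on chromosomes 2, 3, 8 and 9 of the NCBIM37 build, and all are protein-coding. Nfe2l2 (ENSMUSG00000015839) spans chr2:75513570-75542698 on the minus strand and Hmox1 (ENSMUSG00000005413) spans chr8:77617490-77624495 on the plus strand. Slc7a11 (ENSMUSG00000027737) spans chr3:50168858-50247535 on the minus strand, Gss (ENSMUSG00000027610) spans chr2:155388917-155418546 on the minus strand and Srxn1 (ENSMUSG00000032802) spans chr2:151931252-151937112 on the plus strand. Values count reads over all exons of a gene. Keap1 (ENSMUSG00000003308), Nqo1 (ENSMUSG00000003849), Gclc (ENSMUSG00000032350), Gclm (ENSMUSG00000028124) and Gsr (ENSMUSG00000031584) complete the set.

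Promoter windows were available from RefSeq for 7 of the 10 members and not for Hmox1, Gclc and Gsr. The 250 bases before the start of the gene are shown 5′ to 3′ for the members with a match to a searched motif and for Slc7a11 and Gss, whose levels differed between groups. Coordinates of these windows are on GRCm38.p6 and cannot be set beside the gene coordinates above. Capitals mark a match, on either strand, to the core of the antioxidant response element, TGACNNNGC, or to the related AP-1 type motif, TGANTCA.
Nfe2l2 (chr2:75704664-75704913, minus strand): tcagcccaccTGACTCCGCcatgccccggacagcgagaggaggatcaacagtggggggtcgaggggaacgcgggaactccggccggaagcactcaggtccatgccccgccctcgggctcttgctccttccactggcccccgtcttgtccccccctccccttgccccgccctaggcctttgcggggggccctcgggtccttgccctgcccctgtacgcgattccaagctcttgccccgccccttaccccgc
Gclm (chr3:122245307-122245556, plus strand): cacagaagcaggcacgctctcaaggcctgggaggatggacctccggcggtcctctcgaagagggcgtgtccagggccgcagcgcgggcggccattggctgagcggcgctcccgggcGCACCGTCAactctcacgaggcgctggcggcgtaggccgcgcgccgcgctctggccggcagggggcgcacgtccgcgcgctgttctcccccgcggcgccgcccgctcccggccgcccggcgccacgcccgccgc
Srxn1 (chr2:152105274-152105523, plus strand): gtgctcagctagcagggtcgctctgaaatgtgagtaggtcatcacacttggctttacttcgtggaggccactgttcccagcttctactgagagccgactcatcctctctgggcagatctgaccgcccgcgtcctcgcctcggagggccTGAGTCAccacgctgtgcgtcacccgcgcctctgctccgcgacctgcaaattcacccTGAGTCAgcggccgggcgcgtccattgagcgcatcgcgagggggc
Slc7a11 (chr3:50443614-50443863, minus strand): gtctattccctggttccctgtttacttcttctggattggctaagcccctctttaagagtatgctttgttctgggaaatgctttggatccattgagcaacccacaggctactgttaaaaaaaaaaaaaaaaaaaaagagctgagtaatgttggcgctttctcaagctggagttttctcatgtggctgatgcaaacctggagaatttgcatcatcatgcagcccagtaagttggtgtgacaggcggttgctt
Gss (chr2:155592811-155593060, minus strand): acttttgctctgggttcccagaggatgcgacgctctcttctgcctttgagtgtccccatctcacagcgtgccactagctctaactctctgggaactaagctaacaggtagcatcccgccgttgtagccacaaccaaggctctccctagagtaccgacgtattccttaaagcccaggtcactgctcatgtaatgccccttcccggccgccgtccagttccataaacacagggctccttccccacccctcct
The response element core was found in 10.2% of 32851 windows of this length and the AP-1 type motif in 6.75%. Nfe2l2 held the core once, starting 240 bases before the start of the gene. Gclm held it once on the opposite strand, 134 bases before the start. Srxn1 held the AP-1 type motif at 102 and at 45 bases before the start, and as this motif reads alike on both strands each was matched on both. The windows of Keap1, Nqo1, Gss and Slc7a11 held neither set of letters, which says only that these letters are not in these 250 bases.

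Reads assigned to genes ranged from 5768208 to 11510521 per mouse, with the lowest median in Ctr (7119788) and the highest in HD (10159514). The members were covered by few to moderate numbers of reads, from 18 to 282 reads per mouse for Hmox1, 66 to 322 for Nfe2l2 and 297 to 1062 for Srxn1. Neuron markers and markers of hippocampal neurons were present in all 30 libraries. Markers of choroid plexus varied strongly within every group, and their sum ranged from 274 to 37227 normalized counts over the 30 mice. HD replicate 2 stood apart from the other HD mice, with a summed reactive astrocyte marker level of 43648 normalized counts against 5491 to 14343 in the other 4. For the members, calls that were lost without this mouse, and called values that moved by over 1.5 times, are given with the comparison. Calls of the cell type markers were not rerun without it. The mice were housed singly, the labels name no day or batch of dissection, and p-values measure the spread between these mice.

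Levels between genes were compared per kilobase of annotated exon, a length that counts the exons of every isoform, as the mean ± SD over all 30 mice. Srxn1, which encodes sulfiredoxin, an enzyme that repairs over-oxidized peroxiredoxins, was the highest at 222 ± 26.6 normalized counts per kb. The ligase subunits followed, with the catalytic subunit Gclc at 137 ± 10.7 and the modifier subunit Gclm at 108 ± 8.82 normalized counts per kb. Keap1 at 81.0 ± 9.08 and the glutathione reductase gene Gsr at 73.8 ± 13.4 did not differ beyond their spread. Nqo1, a quinone reductase, at 43.2 ± 9.31, Slc7a11 at 41.2 ± 11.6 and Nfe2l2 at 36.4 ± 9.17 normalized counts per kb also lay within their spread. Hmox1, the heme oxygenase that degrades heme, at 26.8 ± 16.7 and Gss at 25.5 ± 3.70 normalized counts per kb were the lowest over all mice. The spread of Hmox1 over the 30 mice includes its differences between groups. Hmox1 lay at 18.0 ± 3.87 normalized counts per kb in Ctr mice, below Gss at 25.7 ± 2.01 and Nfe2l2 at 34.9 ± 3.57. In HD mice it lay at 50.2 ± 32.4, above Gss at 22.0 ± 4.27 and beside Nfe2l2 at 50.4 ± 11.2 normalized counts per kb.

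Over the 6 groups, 5 of the 10 members had a limma F test p under 0.05, against 6.91% of the 21383 genes tested. The lowest F test p was that of Nfe2l2 (7.00e-05, limma adjusted p 0.0238), followed by Hmox1 (0.000476, limma adjusted p 0.0827). Slc7a11 (limma F test p 0.0116), Gss (0.0129) and Srxn1 (0.0476) passed without adjustment. Keap1, Nqo1, Gclc, Gclm and Gsr had F test p-values from 0.285 to 0.971. An adjusted p under 0.05 in this test was reached by Nfe2l2 alone among the members and by 0.444% of all genes.

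**Figure D1:**
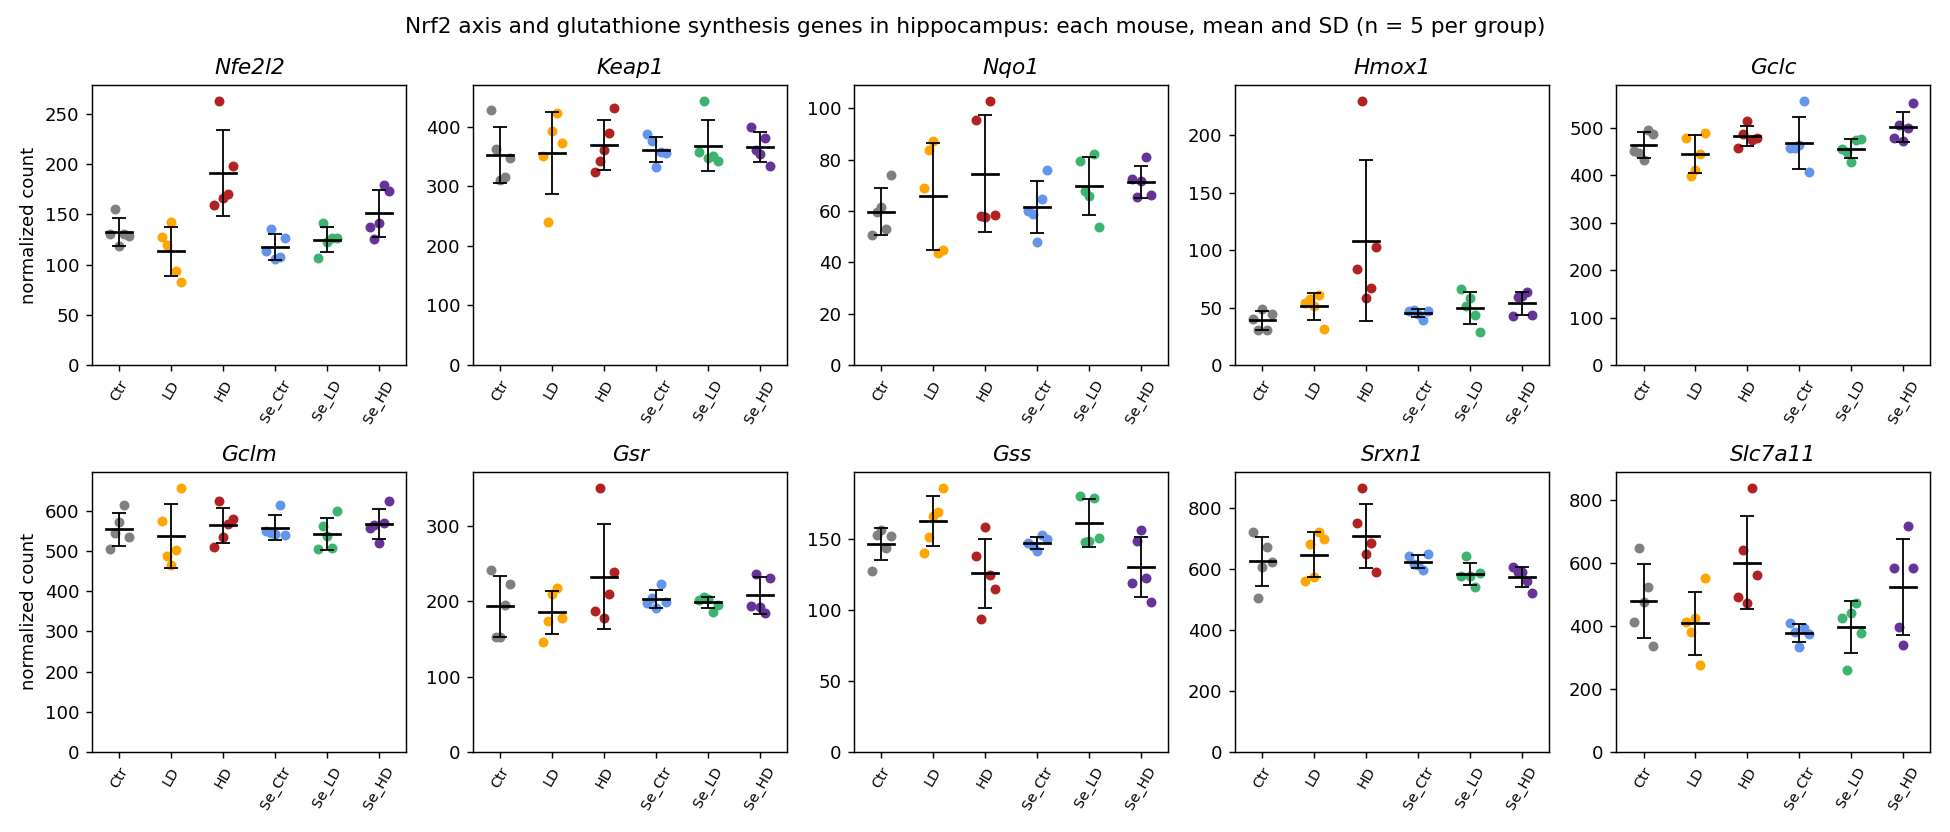
Normalized counts of the 10 members (y axes, starting at 0) in the 6 groups (x axes); each point is 1 mouse, horizontal lines are group means and bars are SD (n = 5). Nfe2l2 and Hmox1 lie higher in all 5 HD mice than in all 5 Ctr mice, 1 HD mouse has 230.2 normalized counts of Hmox1, and Keap1, Gclc and Gclm overlap in all groups.

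HD mice had higher mRNA levels of Nfe2l2 and Hmox1 than Ctr mice, while none of the genes of glutathione synthesis passed the test with all mice included. Without HD replicate 3, Gss (log2 difference -0.32, limma p 0.0295) and Slc7a11 were called too, and without Ctr replicate 2 Slc7a11 was called (0.45, limma p 0.0258). Of the 10 members, 2 were called higher and 0 lower, where called means an unadjusted p under 0.05 in both the limma F test over Ctr, LD and HD and the contrast. Over all 20031 genes tested, 5.09% were called in this contrast and 3.36% were called higher. No member reached a limma adjusted p under 0.05 in this fit, which 0.13% of all genes did. Hmox1 reached one with DESeq2 (0.00207) and in a single limma fit of all 30 mice. The median log2 difference of the members lay at 0.21 and that of all genes at 0.01.

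Nfe2l2 measured 130.4, 155, 118, 131 and 128 normalized counts in the 5 Ctr mice. In the HD mice it measured 159, 263, 167, 170.4 and 197 normalized counts. The groups did not overlap, and HD replicate 2 was the highest. The mean was 132 ± 13.6 in Ctr and 191 ± 42.6 in HD (SD, n = 5), a log2 difference of 0.51 (SE 0.16) with a limma p of 0.0051 and an adjusted p of 0.271. The exact two-sided permutation p was 0.00794, the smallest that 5 mice against 5 can give. Leaving out HD replicate 2 gave a log2 difference of 0.39 and a limma p of 0.0211.

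Hmox1, a well-known target of Nrf2 that is also repressed by Bach1 and abundant in activated microglia and macrophages, showed the largest log2 difference of the members. It measured 39.8, 30.6, 49.1, 30.4 and 44.8 normalized counts in the Ctr mice. In the HD mice it measured 83.4, 230.2, 58.5, 67.5 and 102 normalized counts. The groups did not overlap, and HD replicate 2 lay far above the other HD mice. The log2 difference was 1.29 (SE 0.29), or 2.45-fold on the scale of log2(value + 1), with a limma p of 0.000224, an adjusted p of 0.0863 and an exact permutation p of 0.00794. Leaving out HD replicate 2 gave a log2 difference of 0.98 and a limma adjusted p of 0.163. Groups did not overlap in 2 members, against 1.71% of all genes.

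Glial markers moved with this contrast. All 10 microglia markers and 7 of 8 reactive astrocyte markers were called higher in HD than in Ctr mice, as were 4 of 8 general astrocyte markers, and the summed microglia markers ranged from 3260 to 7350 normalized counts in HD against 2566 to 2816 in Ctr. The summed reactive astrocyte markers ranged from 5491 to 43648 in HD and from 2555 to 3091 in Ctr, and every marker of the microglia and reactive astrocyte lists had reads in every group. Among the called reactive astrocyte markers, the SD in HD mice was above the mean for Timp1 (108 ± 221), Cd44 (394 ± 681), Vim (967 ± 1447) and Lcn2 (8.94 ± 9.90 normalized counts). It was below the mean for Gfap, Serpina3n and Osmr. The part of these cells in the levels of Nfe2l2 and Hmox1 was not tested.

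The other 8 members were not called between HD and Ctr. Slc7a11 averaged 600 ± 149 normalized counts in HD and 479 ± 117 in Ctr (SD, n = 5), with a log2 difference of 0.33 and a 95% interval from -0.06 to 0.71. Nqo1, among the most used reporters of Nrf2 activity, averaged 74.4 ± 22.7 in HD and 59.8 ± 9.20 in Ctr, and its log2 difference of 0.27 had an interval from -0.20 to 0.75. The HD mice were split, with Nqo1 at 95.5 and 103 in 2 mice and between 57.6 and 58.3 in the other 3. All 7 choroid plexus markers had log2 differences above 0 in this contrast (median 1.41). Of these 0 were called, and their part in the Nqo1 values was not tested. Gsr had a log2 difference of 0.25 with an interval from -0.12 to 0.61, and of 0.09 without HD replicate 2. Srxn1 had a log2 difference of 0.18 (interval -0.07 to 0.42), and of 0.10 without HD replicate 2. Gss had a log2 difference of -0.24 (interval -0.52 to 0.05), and of -0.14 without that mouse.

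Both ligase subunits and Keap1 had log2 differences near 0. The log2 difference between HD and Ctr was 0.06 for Gclc (interval -0.12 to 0.24), 0.02 for Gclm (interval -0.19 to 0.24) and 0.07 for Keap1 (interval -0.21 to 0.35). For Gclc and Gclm the upper limit of these limma 95% intervals was 0.24, and the interval for Nfe2l2 ran from 0.17 to 0.84. These intervals overlap, and the genes were not tested against each other.

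At the low dose no member was called against Ctr, where 1.46% of all genes were called. The log2 differences ranged from -0.25 for Nfe2l2 (interval -0.58 to 0.09) to 0.38 for Hmox1 (interval -0.22 to 0.98). Nfe2l2 measured 128, 119.8, 142, 93.9 and 82.1 normalized counts in the LD mice. Of these, 2 mice lay below all Ctr mice and 3 within their range. The lowest unadjusted limma p of a member was 0.141, and no gene of the table reached an adjusted p under 0.05 in this contrast.

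Between the doses, 4 of the 10 members were called, against 4.49% of all genes. Nfe2l2, Hmox1 and Slc7a11 were higher and Gss was lower in HD than in LD mice. Glial markers moved with this contrast as well, 9 of 10 microglia, 6 of 8 reactive astrocyte and 4 of 8 astrocyte markers being called higher in HD than in LD mice, with median log2 differences of 0.92, 1.48 and 0.32, and their part in these results was not tested. These HD mice are the same as in the comparison with Ctr, so both comparisons share their values. Nfe2l2 differed by 0.75 on the log2 scale (SE 0.16, limma p 0.00014, adjusted p 0.0876), and its 5 HD mice lay above all 5 LD mice, which held for 1.34% of all genes in either direction. Hmox1 differed by 0.91 (SE 0.29, limma p 0.00482), with LD mice at 54.4, 57.9, 51.8, 61.3 and 31.1 normalized counts and 1 HD mouse within their range. This difference in Hmox1 was 0.60, with a limma p of 0.0172, without HD replicate 2.

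Slc7a11, the cystine and glutamate exchanger, measured 411, 379, 424, 274 and 553 normalized counts in LD mice and 492, 641, 471, 838 and 559.9 in HD mice. The 2 groups overlapped, with 3 HD mice above all LD mice. The log2 difference was 0.56 (SE 0.19, limma p 0.00666, adjusted p 0.408, exact permutation p 0.0317), and it was not called without LD replicate 4, without HD replicate 4 or with limma without trend. The 3 HD mice with the highest Slc7a11 also had the highest summed fibroblast and meninges markers, at 6085, 7073 and 6600 normalized counts against 2565 and 3442 in the other 2 HD mice and 2546 to 3944 in LD mice. All 6 of these markers had log2 differences above 0 between HD and LD, 0 were called, and their part in the result was not tested. Gss, which joins glycine to the dipeptide made by the ligase, measured 140.2, 152, 167, 169 and 187 in LD mice and 139, 93.9, 159, 125 and 115 in HD mice. Its log2 difference was -0.38 (SE 0.14, limma p 0.0114, adjusted p 0.486), and it was called in 4 of the 10 fits that left out 1 of these mice. It was -0.28 and not called without HD replicate 2. With library sets as a covariate, each a run of 6 consecutive library numbers with 1 mouse of every group, Gss was not called either (limma p 0.0177).

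In the selenium groups, 2 of the 10 members, Nfe2l2 and Slc7a11, were called higher in Se_HD than in Se_Ctr mice, against 2.06% of the 19679 genes tested. Hmox1 was not called. Nfe2l2 measured 113, 136, 105, 108 and 127 normalized counts in Se_Ctr mice and 137, 125, 142, 179 and 173 in Se_HD mice. All but 1 of the Se_HD mice lay above all Se_Ctr mice. The log2 difference was 0.35 (SE 0.11, limma p 0.00583, exact permutation p 0.0238), and neither this gene nor any other of the table reached a limma adjusted p under 0.05, where 825 had an unadjusted p under 0.05. DESeq2 gave 4 such genes, edgeR 0 and limma with library sets as a covariate 1. It was not called without Se_HD replicate 4 or without Se_HD replicate 5.

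Slc7a11 measured 407, 380.4, 333, 392 and 374 normalized counts in Se_Ctr mice and 583, 395, 339, 715 and 583 in Se_HD mice. The Se_HD mice were split, 3 above all Se_Ctr mice and 2 within their range. The log2 difference was 0.42 (SE 0.17, limma p 0.0207), the exact permutation p was 0.103, and the gene was called in 4 of 10 fits that left out 1 mouse. The 3 Se_HD mice with the higher Slc7a11 were also those with the higher summed fibroblast and meninges markers, at 8999, 14017 and 10372 against 2271 and 2520 normalized counts. Of these 6 markers 3 were called higher in Se_HD than in Se_Ctr and 4 in Se_HD than in Se_LD, and their part in the result was not tested.

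Hmox1 measured 47.5, 47.5, 44.5, 39.4 and 47.2 normalized counts in Se_Ctr mice. In Se_HD mice it measured 42.7, 59.0, 60.4, 63.7 and 43.8 normalized counts. The groups overlapped, and the log2 difference of 0.23 had a limma 95% interval from -0.16 to 0.63. The summed microglia markers ranged from 2499 to 3193 in Se_Ctr and from 2699 to 3164 in Se_HD, and 0 of the 10 were called. Reactive astrocyte markers moved with this contrast, 2 of the 7 tested being called higher in Se_HD, and their sum ranged from 3467 to 4316 normalized counts in Se_HD against 2687 to 3691 in Se_Ctr. Their part in the higher Nfe2l2 was not tested. Gclc, Gclm, Gsr and Keap1 had log2 differences from 0.02 to 0.10. Srxn1 was not called, and averaged 573 ± 33.5 normalized counts in Se_HD and 624 ± 21.2 in Se_Ctr mice (SD, n = 5).

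No member was called between Se_LD and Se_Ctr mice, where 1.46% of all genes were called. Between Se_HD and Se_LD mice 3 members were called, against 2.47% of all genes: Nfe2l2 (0.27, limma p 0.0284) and Slc7a11 (0.38, limma p 0.0337) higher and Gss (-0.31, limma p 0.00799) lower on the log2 scale. Exact permutation p-values for these 3 were 0.0794, 0.175 and 0.0635. Gss measured 181, 148, 149, 179.5 and 151 normalized counts in Se_LD mice and 119, 149, 157, 123 and 106 in Se_HD mice. The 3 Se_HD mice with the lower Gss were those with the higher Slc7a11. Leaving out Se_HD replicate 4 or Se_HD replicate 5 left no member called between Se_HD and Se_LD, and likewise between Se_HD and Se_Ctr.

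**Figure D2:**
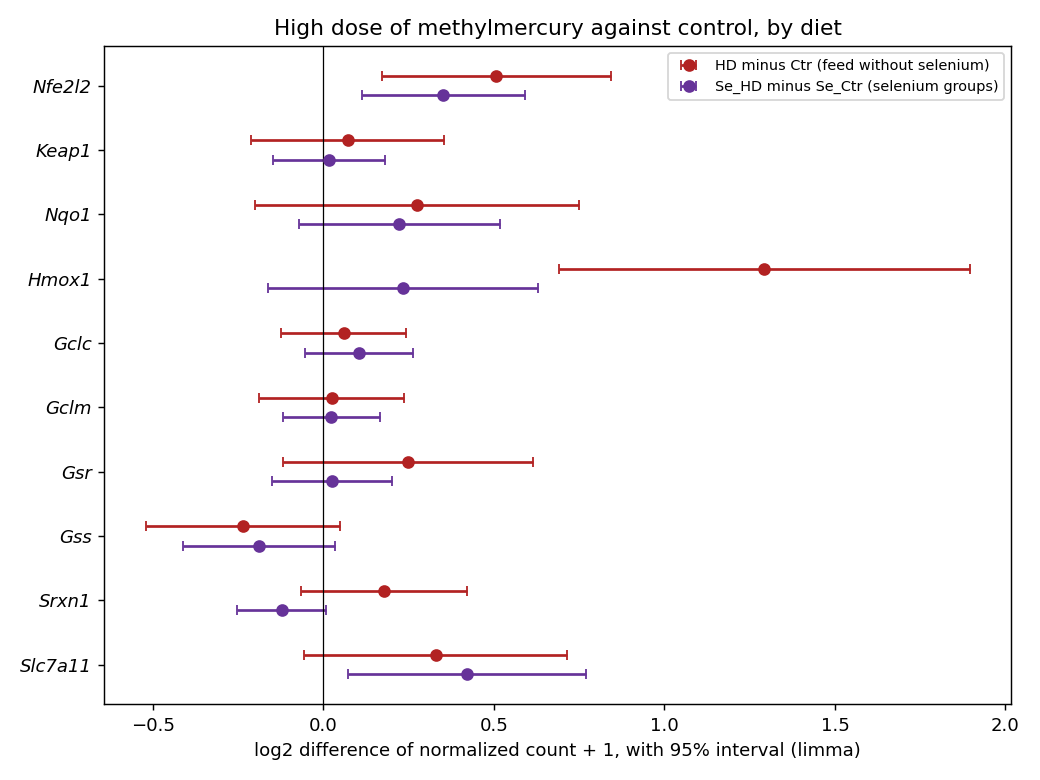
Log2 differences (x axis, normalized count + 1) between high dose and control mice for the 10 members (y axis), with limma 95% intervals, in mice without (red) and with (purple) added selenium. Hmox1 is at 1.29 without and 0.23 with selenium, Nfe2l2 at 0.51 and 0.35, and both Gclm values are at 0.02.

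Selenium at the high dose went with lower Hmox1, Nfe2l2 and Srxn1. Se_HD mice were compared with HD mice in a fit of all 30 mice, and 3 of the 10 members were called lower and 0 higher, against 3.59% of the 21383 genes called and 2.62% called lower. With library sets as a covariate, and with limma without trend, 2 were called, Nfe2l2 and Hmox1, and Srxn1 was not. Hmox1 averaged 108 ± 70.1 normalized counts in HD and 53.9 ± 9.92 in Se_HD mice (SD, n = 5). The log2 difference was -0.83 (SE 0.26, limma p 0.00281, adjusted p 0.242, exact permutation p 0.0317). Without HD replicate 2 it was -0.51 with a limma p of 0.026. Microglia markers moved with this contrast too, 9 of 10 being called lower in Se_HD than in HD mice, as were 5 of 8 astrocyte markers and 7 of 8 reactive astrocyte markers. The sum of the reactive astrocyte markers ranged from 3467 to 4316 normalized counts in Se_HD mice.

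Srxn1 measured 749, 867, 648, 686 and 589 normalized counts in HD mice and 607, 589, 589, 559 and 522 in Se_HD mice. The groups overlapped. The log2 difference was -0.29 (SE 0.09, limma p 0.00357, adjusted p 0.266), and Srxn1 was called in 3 of 10 fits that left out 1 mouse. Nfe2l2 differed by -0.33 (SE 0.14, limma p 0.0277, adjusted p 0.527, exact permutation p 0.0794), and the groups overlapped. Without HD replicate 2, Nfe2l2 differed by -0.20 with a limma p of 0.146. It was called in 5 of 10 such fits. Without HD replicate 2 only Hmox1 of the members was called in this contrast.

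The difference between the effects of the high dose with and without selenium was tested as an interaction. It was called for Hmox1 and Srxn1, against 2.38% of all genes. It was also called, in the same direction, for 9 of 10 microglia markers (median -0.82), 4 of 8 reactive astrocyte markers (median -1.22) and 2 of 8 astrocyte markers (median -0.22), whose part in these results was not tested. For Hmox1 the interaction was -1.06 on the log2 scale (SE 0.36, 95% interval -1.80 to -0.32, limma p 0.00618, adjusted p 0.787), and -0.74 with a limma p of 0.0189 without HD replicate 2. For Srxn1 it was -0.30 (SE 0.13, limma p 0.0301), and it was called in 5 of the 20 fits that left out 1 mouse, and not without HD replicate 2 (-0.22) or with library sets as a covariate. The interaction for Nfe2l2 was -0.16 with an interval from -0.56 to 0.25. At the low dose no member had an interaction that was called, against 1.09% of all genes.

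Without mercury, and at the low dose, selenium did not go with a called difference in any member. Between Se_Ctr and Ctr 1.3% of all genes were called, and the lowest limma p of a member was 0.112, for Slc7a11 (log2 difference -0.31, interval -0.70 to 0.08). Slc7a11 was called in this contrast without Ctr replicate 5. Between Se_LD and LD 0.73% of all genes were called, and the members had log2 differences from -0.14 for Srxn1 to 0.16 for Nfe2l2. Pooled over the 3 doses, selenium went with lower Srxn1 (log2 difference -0.14, SE 0.05, limma p 0.0125, adjusted p 0.691), 1 of 10 members against 2.3% of all genes. Srxn1 was called in 9 of the 30 fits that left out 1 mouse, and not without HD replicate 2 or with library sets as a covariate.

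Pooled over both diets, with 10 high dose mice against 10 mice without mercury, 4 of the 10 members were called, against 4.21% of all genes. Of the markers, 9 of 10 of microglia, 5 of 8 of reactive astrocytes and 4 of 8 of astrocytes were called higher too, and their part was not tested. Nfe2l2 rose by 0.43 on the log2 scale (SE 0.10, limma p 0.000141, adjusted p 0.0568). Hmox1 rose by 0.76 (SE 0.18, limma p 0.000186, adjusted p 0.0684) and Slc7a11 by 0.37 (SE 0.13, limma p 0.009). The Hmox1 value averages a called difference without added selenium and an uncalled one with it, and its interaction was called. All 6 fibroblast and meninges markers had log2 differences above 0 in this contrast (median 0.38). Of these 0 were called, and their part in the Slc7a11 result was not tested. Gss fell by 0.21 (SE 0.09, limma p 0.0173), and was not called without HD replicate 2 (log2 difference -0.16, limma p 0.0509). Nqo1 was not called, with a log2 difference of 0.25 and an interval from -0.03 to 0.53. All 7 choroid plexus markers lay above 0 here too (median 1.03), 0 were called, and their part was not tested. Gclc had a log2 difference of 0.08 (interval -0.03 to 0.19) and Gclm of 0.02 (interval -0.10 to 0.14). Pooled over both diets, no member was called at the low dose, against 0.823% of all genes.

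Other genes of the pathway were taken from fixed lists. The lists were written with earlier results of these data known, so their counts are no independent test. Of 26 other genes regulated by Nrf2, 6 were called higher and 0 lower in HD than in Ctr mice, against 5.09% of all genes called and 3.36% called higher, and their median log2 difference was 0.17 beside 0.01 for all genes. Aox1, an aldehyde oxidase, averaged 189 normalized counts in HD and 102 in Ctr mice, with a log2 difference of 0.89 (SE 0.16, limma adjusted p 0.024). Gstm1, a glutathione S-transferase, averaged 1847 and 1313, with a log2 difference of 0.48 (SE 0.09, limma adjusted p 0.0454). Gstm1 has close paralogs, between which reads could be split. The other 4 were the light ferritin chain Ftl1 (0.51), the peroxiredoxin Prdx1 (0.36), malic enzyme Me1 (0.32) and isocitrate dehydrogenase Idh1 (0.31), with limma adjusted p-values from 0.194 to 0.445. Fth1, the heavy ferritin chain and a highly expressed gene of the list, had a log2 difference of 0.08 and was not called.

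Without HD replicate 2, an alternative chosen after seeing the data, 6 of the 26 were called higher and 1 lower (Blvra), against 3.63% of all genes called in that fit, and Me1 was not among them. In Se_HD against Se_Ctr mice 1 of 26 was called, against 2.06% of all genes. It was Gstm1, with a log2 difference of 0.32 (SE 0.08, limma p 0.000538). Aox1 had a log2 difference of 0.35 there and was not called. Between Se_HD and HD mice Idh1, Prdx1 and Ftl1 were called lower, against 2.62% of all genes, with log2 differences of -0.17, -0.26 and -0.49. Without HD replicate 2 the calls there were Txnrd1 higher and Gstm1 and Ftl1 lower, named after their values were seen, against 2.5% of all genes. Pooled over both diets 6 of 26 rose, against 4.21% of all genes called in either direction, among them Gstm1 (0.40, limma adjusted p 0.00078) and Aox1 (0.62, limma adjusted p 0.00729). The pooled calls without HD replicate 2 were 4 higher (Aox1, Gstm1, Prdx1 and Ftl1) and 1 lower (Blvra), against 3.1% of all genes.

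**Figure D3:**
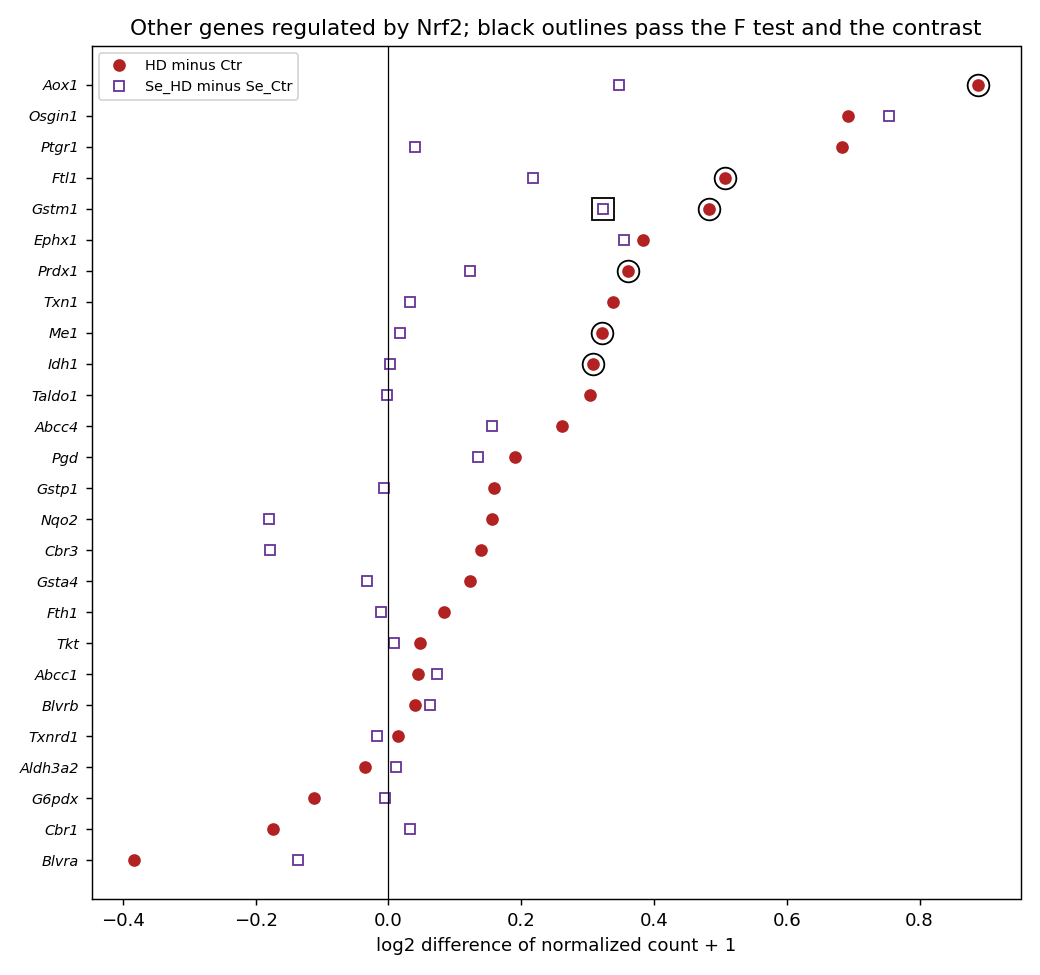
Log2 differences (x axis, normalized count + 1) of 26 other genes regulated by Nrf2 (y axis), between HD and Ctr mice (filled circles) and between Se_HD and Se_Ctr mice (open squares); black outlines mark genes that passed both tests. The 6 outlined circles lie between 0.31 and 0.89, and the outlined square is Gstm1 at 0.32.

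Of 14 regulators of Nrf2, 1 was called in HD against Ctr mice, where 5.09% of all genes were called, a share at which 1 of 14 is no result about the list. It was Bach1, a repressor that competes with Nrf2 at the same elements and is released by heme, with a log2 difference of 0.44 (SE 0.17, limma p 0.0173, adjusted p 0.446). Bach1 was also called in Se_HD against Se_Ctr (0.24, limma p 0.0155), and it was lower in Se_HD than in HD mice (-0.40, limma p 0.0091). Bach1 was not called between HD and Ctr without HD replicate 2.

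In the remaining lists single genes were called, beside 5.09% of all genes for HD against Ctr and 2.06% for Se_HD against Se_Ctr, and nothing is read from such counts about the lists. Of 16 other genes of glutathione metabolism, 1 was called in HD against Ctr mice, the gamma-glutamyl transferase family member Ggt5 (0.69, SE 0.29, limma p 0.0276). There were 2 without HD replicate 2, Ggt5 and Oplah, the latter named after its values were seen. In Se_HD against Se_Ctr mice 1 was called, the aminopeptidase Anpep (0.84, SE 0.31, limma p 0.0121). Of 13 genes that supply cystine, cysteine and methionine, 1 was called in HD against Ctr mice, Csad, which turns cysteine sulfinate towards taurine (0.45, SE 0.16, limma p 0.00995). Slc1a2, the main glutamate transporter of astrocytes and the most abundant gene of this list, had a log2 difference of 0.10 and was not called.

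Within groups, with each group's mean removed, Nfe2l2 was compared with the 9 other members over 30 mice. The permutations shuffled the centred values over all 30 mice and not within groups. They take the spread as alike in every group, which it was not (SD of Hmox1 70.1 normalized counts in HD and 3.48 in Se_Ctr). These permutation p-values may therefore be too low, here and for the markers below. Gss was lower where Nfe2l2 was higher (Pearson r -0.64, permutation p 0.00019, adjusted p 0.00171; Spearman rho -0.60, adjusted p 0.00558). Without the 2 mice farthest in Nfe2l2, r was -0.51. Hmox1 had r 0.40 (permutation p 0.0277, adjusted p 0.125) and rho 0.10, and r was 0.03 without those 2 mice, HD replicate 2 and LD replicate 5, so that relation rested on them. The other 7 adjusted p-values were 0.468 or higher. All values share library depth and tissue composition.

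The members were also compared with summed markers of 5 cell types in the same way, which gave 50 relations. Slc7a11 followed fibroblast and meninges markers (Pearson r 0.70, permutation adjusted p 0.00075; rho 0.72, adjusted p 0.002; r 0.64 without the 2 farthest mice). Nqo1 followed choroid plexus markers (r 0.60, permutation adjusted p 0.0038; rho 0.62, adjusted p 0.00717; r 0.48 without the 2 farthest mice). Hmox1 followed reactive astrocyte markers (r 0.77, permutation adjusted p 0.00075; rho 0.62, adjusted p 0.00717; r 0.48). Gss was lower where microglia markers were higher (r -0.66, permutation adjusted p 0.00212; rho -0.58, adjusted p 0.0164; r -0.40).

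In the following relations too, r was smaller in size without the 2 farthest mice. Gsr had r 0.67 with reactive astrocyte markers and 0.32 without the 2 farthest mice, and r 0.58 with microglia markers and 0.25 without them. Hmox1 had r 0.51 with microglia markers and 0.03 without the 2 farthest mice. Nfe2l2 had r 0.51 with reactive astrocyte markers (permutation adjusted p 0.0212) and 0.26 without those mice, and r 0.46 with microglia markers (permutation adjusted p 0.0486) and 0.23 without them. Gss had r -0.53 with reactive astrocyte markers (permutation adjusted p 0.0178) and -0.04 without the 2 farthest mice. Hmox1 was lower where neuron markers were higher (r -0.54, permutation adjusted p 0.0178; r -0.36 without the 2 farthest).

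**Figure D4:**
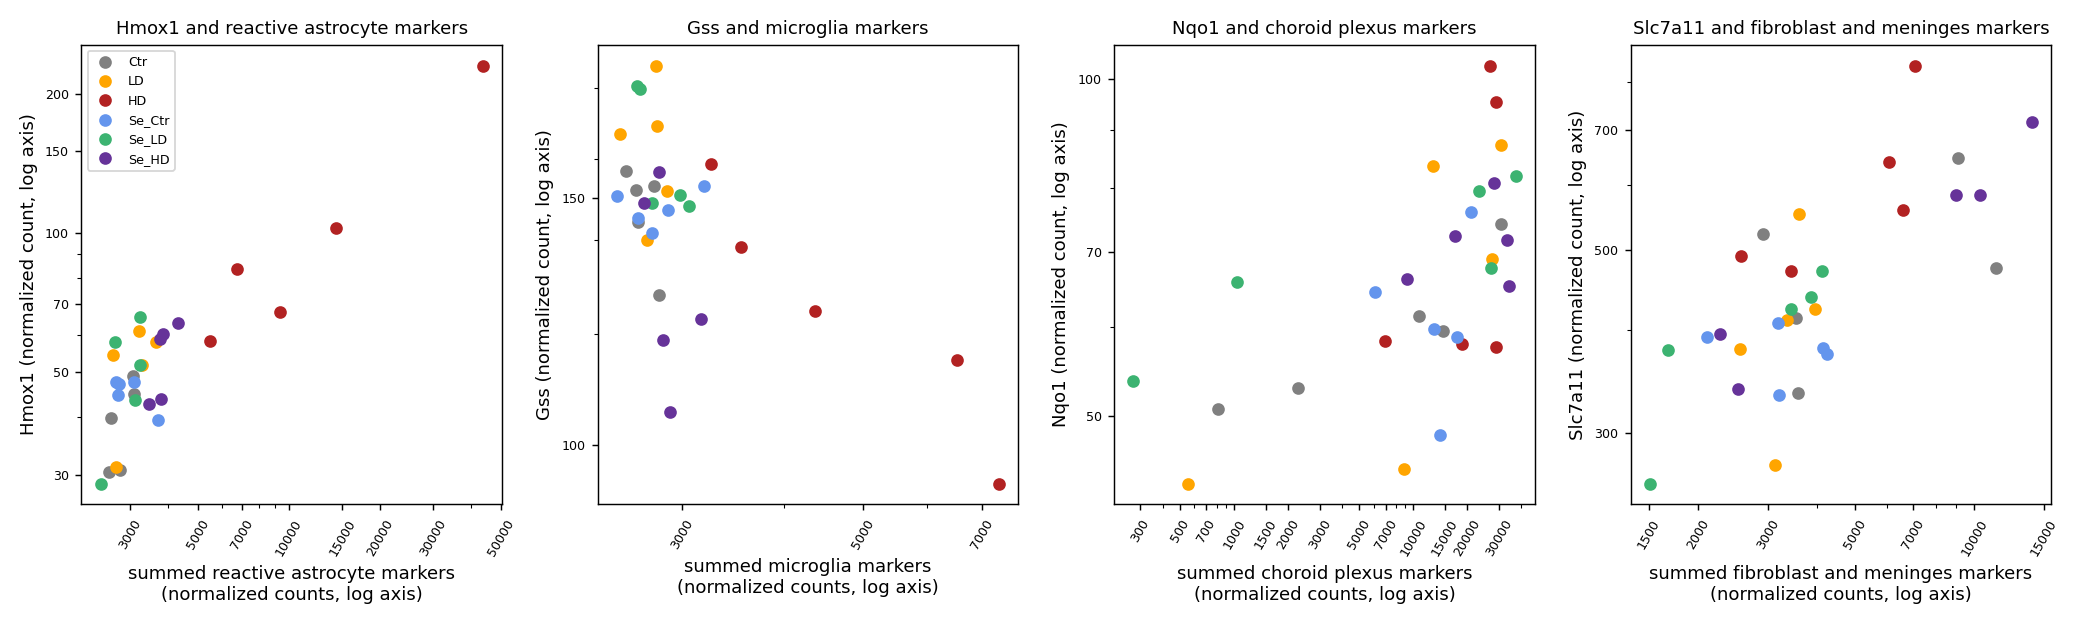
Normalized counts of Hmox1, Gss, Nqo1 and Slc7a11 (y axes, log scale) against the summed normalized counts of a cell type's markers (x axes, log scale); each point is 1 of 30 mice, coloured by group. With group means removed, r was 0.77, -0.66, 0.60 and 0.70, and the HD mouse with 43648 counts of reactive astrocyte markers is the one with 230.2 counts of Hmox1.

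The genes whose pattern was most like that of a member were taken by Pearson r over all 30 mice, group differences included, among 14295 genes, as a description. For Nfe2l2 they were Osmr (0.88), C4b (0.85) and Plce1 (0.82), and Osmr is itself one of the reactive astrocyte markers used here. For Hmox1 they were Cd9 (0.88), Ucp2 (0.87) and Col16a1 (0.87). For Gss r was lower, with Spnb1 (0.72), Scn4b (0.72) and Ddhd2 (0.70).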

How the data were processed

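One stranded mRNA library per mouse was sequenced in single reads of 75 bases. The authors trimmed with Trim Galore 0.4.2, aligned with HISAT2 to NCBIM37, counted per gene with featureCounts, removed genes with under 10 reads in all and divided by DESeq2 size factors. The deposited values are these normalized counts, a per-gene signal scaled to library size. Dividing by the step of each column gave whole reads for 100% of values (tolerance 0.01 reads). Of the 21412 genes, 21326 had a symbol.

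The table was fitted with limma 3.58.1 (trend) on log2(normalized count + 1), for genes with a sum of at least 10: Ctr, LD and HD in one fit (20031 genes), the selenium groups in another (19679), and all 30 mice for contrasts across diets (21383). A gene was called where the F test and the contrast both had p under 0.05, following the study's order of analysis of variance and planned contrasts. Benjamini-Hochberg adjustment ran over all genes tested. Single members were also tested by exact permutation, and correlations with 100000 permutations over all 30 mice. Scripts were tested on simulated data.

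All 10 members are named, and of the other lists the genes called in a high dose contrast, at most 6 a list, or the most abundant. Members and lists were chosen with earlier results of these data known. No pair of replicates was a repeated library (smallest chi-square per degree of freedom 2.97). Alternatives covered the pseudocount, filter, normalization, edgeR 4.0.16, DESeq2, library sets, a single fit and leaving out each mouse.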

Additional observations from a re-analysis of the deposited data

Results flagged for a closer look

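Among the 60 combinations of a member and a group, 3 held a mouse whose gap to its nearest neighbour exceeded 0.71 of the group's range, and chance gives about 1 in 20. These were Keap1 in Se_LD replicate 2 (443 normalized counts, gap 0.852 of the range), Hmox1 in HD replicate 2 (230.2 normalized counts, 0.744) and Gclm in Se_Ctr replicate 4 (615 normalized counts, 0.881). By the same measure, the summed reactive astrocyte markers stood apart in HD replicate 2 (0.768), the summed neuron markers in LD replicate 2 (0.762) and the reads on genes in HD replicate 1 (0.821).

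The effect of the high dose differed between diets, by the interaction test, for Hmox1 (log2 difference of differences -1.06) and for Srxn1 (-0.30). The adjusted p was 0.787 for Hmox1 and 0.997 for Srxn1 in limma over all 21383 genes.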

How the results depend on the processing

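The 140 member results (10 members in 14 contrasts) held 21 calls, and all 21 had the same sign under each of the 10 or 11 other settings run for their contrast and with each mouse of the groups compared left out. Of the uncalled results, 54 changed sign in some setting. Nfe2l2 and Hmox1 were called in HD against Ctr under all 11 settings, with log2 differences from 0.48 to 0.54 and from 1.13 to 1.47, and with limma, edgeR or DESeq2 adjusted p-values from 0.0763 to 0.385 and from 0.00207 to 0.213. The labels give no replicate numbers shared between groups, but each set of 6 consecutive library numbers holds 1 mouse of every group. With these library sets as a covariate 4 calls were lost, Gss in HD against LD and Srxn1 in Se_HD against HD, in selenium pooled over doses and in the selenium by HD interaction. With library sets, or with limma without trend, 0 members were called for selenium pooled over doses and 1 in the selenium by HD interaction. Without trend 1 was called between Se_HD and Se_Ctr, and Slc7a11 was not called there, in HD against LD or in Se_HD against Se_LD. In a single fit of all 30 mice 1 was called between Se_HD and Se_LD. Leaving out each mouse in turn gave 2 to 4 called members for HD against Ctr, 2 to 4 for HD against LD, 3 to 4 for HD pooled, 0 to 1 for Se_Ctr against Ctr, 1 to 3 for Se_HD against HD, 0 to 3 for Se_HD against Se_Ctr and against Se_LD, 1 to 2 for the selenium by HD interaction, 0 to 1 for the selenium by LD interaction and for selenium pooled, 4 to 5 over the 6 groups, and 0 to 0 for the low dose contrasts. The 4 in HD against Ctr arose without HD replicate 3 and were Nfe2l2, Hmox1, Gss and Slc7a11. Limma without trend gave 0 genes of the table with an adjusted p under 0.05 in HD against Ctr, against 26 as reported and 200 in a single fit of all 30 mice, and DESeq2 gave 196. The causes were not tested. Hmox1, with as few as 18 reads in a mouse, is the member whose precision depth limits most.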
